A study of Mus musculus with 5 samples.

Results

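The Sprouty and Spred genes encode inhibitors that hold back receptor tyrosine kinase signaling, and this account follows the 6 of them chosen by their symbols, Spry1, Spry2, Spry4, Spred1, Spred2 and Spred3, among the 32285 genes listed for each library. All 6 were listed and had UMIs (unique molecular identifiers, each counting 1 captured RNA molecule) in all 5 libraries. Wild-type mouse epiblast stem cells (EpiSCs, pluripotent cells derived from the post-implantation epiblast), from 1 line of a 129 background, were differentiated for 3 days in N2B27 with 1 µM CHIR99201, an agonist of Wnt signaling, and 8 ng/ml BMP. The 5 cultures, each profiled once by droplet-based single-cell RNA sequencing of 3′ ends, shared these agents and differed in 0, 0.75, 3 or 12 ng/ml FGF2 or in 30 nM of the FGF receptor inhibitor AZD4547 (FGFRi). The sources used here do not state whether FGF2 was added along with the inhibitor. Which of these genes follow the FGF2 dose, and which are lower with the inhibitor than without added FGF2, is the question that the dose series and the FGFRi library address.

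FGF ligands bind FGF receptors, which activate Ras and then the kinase cascade that ends in ERK. ERK switches on genes for its own inhibitors, among them Sprouty and Spred proteins, so that their RNA is widely read as a record of recent FGF signaling. Both families share a cysteine-rich Sprouty domain, and Spred proteins carry in addition an EVH1 domain, through which they recruit the Ras-inactivating protein neurofibromin. In the gastrulating embryo, FGF signaling is known for its role in the formation and migration of mesoderm.

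Promoter windows of 300 bases, 250 before and 50 after the annotated start, were matched for 5 of the 6 genes (RefSeq, GRCm38.p6). The RefSeq start is that of GENCODE for Spry1 and Spry2. It lies 67 bases from the GENCODE start for Spred2, 303 bases for Spred1 and 1764 bases for Spred3. The Spred1 and Spred3 windows therefore do not hold the start of the gene as placed further on, and the Spred1 window lies wholly before it. The letters CGGAAG are one form of the site that ETS factors such as the ERK targets Etv4 and Etv5 recognize. Shorter forms such as GGAA were not searched, and windows without CGGAAG may hold them. CGGAAG was searched on both strands and stood in 16.9% of 32851 mouse promoter windows. Spred1 and Spred2 held CGGAAG, whereas Spry1, Spry2 and Spred3 did not. None of the 5 windows held TGANTCA (AP-1, in 7.81% of all windows) or TCACACC (T-box, in 3.98%). Spred2 and Spred1 are shown because they are the windows with a match, and Spry1 because its level moved in opposite directions in E-cadherin and N-cadherin cells. All are written 5′ to 3′ on the strand of the gene, and capitals mark CGGAAG or its reverse complement.
Spred2 (plus strand, chr11:19924192-19924491): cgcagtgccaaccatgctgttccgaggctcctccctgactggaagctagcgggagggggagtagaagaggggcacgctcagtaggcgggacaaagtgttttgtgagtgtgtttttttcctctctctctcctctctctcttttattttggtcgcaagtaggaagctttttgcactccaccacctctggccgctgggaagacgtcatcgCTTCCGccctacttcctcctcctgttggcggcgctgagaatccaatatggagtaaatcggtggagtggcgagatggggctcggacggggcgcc
Spred1 (plus strand, chr2:117120821-117121120): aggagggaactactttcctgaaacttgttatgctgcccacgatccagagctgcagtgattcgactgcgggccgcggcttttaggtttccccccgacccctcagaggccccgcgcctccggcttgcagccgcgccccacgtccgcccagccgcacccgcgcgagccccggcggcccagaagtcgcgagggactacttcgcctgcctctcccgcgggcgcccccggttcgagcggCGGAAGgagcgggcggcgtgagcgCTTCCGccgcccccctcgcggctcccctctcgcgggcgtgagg
Spry1 (plus strand, chr3:37639697-37639996): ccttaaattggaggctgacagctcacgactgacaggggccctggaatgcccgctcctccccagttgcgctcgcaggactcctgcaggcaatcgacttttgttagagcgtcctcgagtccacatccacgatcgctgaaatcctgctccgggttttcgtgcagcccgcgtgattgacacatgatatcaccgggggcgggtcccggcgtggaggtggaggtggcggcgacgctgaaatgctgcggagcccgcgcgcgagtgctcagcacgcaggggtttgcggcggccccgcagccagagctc
In Spred2 the match, on the minus strand, began 43 bases before the RefSeq start. The GENCODE start of Spred2 lies 67 bases before the RefSeq start, so that this match lies within the gene as GENCODE places it. In Spred1 a match lay 17 bases before the RefSeq start on the plus strand and another at base 8 of the RefSeq transcript on the minus strand. Both Spred1 matches lie before the GENCODE start. The GC content was 57% for Spred2, 72.3% for Spred1 and 64.3% for Spry1, against a median of 52.7% over all windows. A match of letters is a description of these windows and was not set against any measure of binding.

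In GENCODE vM21 on GRCm38 (mm10), the 6 protein-coding genes lie on 6 chromosomes. Spry1 (ENSMUSG00000037211) spans chr3:37639947-37644598 on the plus strand, Spry2 (ENSMUSG00000022114) spans chr14:105891947-105896819 on the minus strand, and Spry4 (ENSMUSG00000024427) spans chr18:38586247-38601415 on the minus strand. Spred1 (ENSMUSG00000027351) spans chr2:117121374-117182279 on the plus strand, Spred2 (ENSMUSG00000045671) spans chr11:19924375-20024026 on the plus strand, and Spred3 (ENSMUSG00000037239) spans chr7:29158829-29170411 on the minus strand. Among the genes listed for the libraries, no other overlaps one of them on the same strand. Spred3 alone overlaps a listed gene on the opposite strand, Ggn. Annotated genes not listed for the libraries were not considered.

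The levels rest on 10653 cells, those with at least 2500 detected genes and at most 10% mitochondrial UMIs, out of 15375 deposited barcodes. Between 1696 and 2725 cells were retained per library, with 47824660 to 81538748 UMIs per library, and the median depth per cell ran from 24408 UMIs with the FGFRi to 29661.5 UMIs at 0 ng/ml. Any pair of libraries shared at most 3 barcodes. The cells moved between states across the libraries. The summed level of 5 primitive streak markers was 3.55 CPM with the FGFRi and 416 CPM at 12 ng/ml, and that of 5 presomitic mesoderm markers 3.28 and 275 CPM, whereas 5 mesenchyme markers went from 3901 to 144 CPM and 5 surface ectoderm markers from 2420 to 648 CPM. The streak markers T and Fgf8 stood at 208 and 160 CPM at 12 ng/ml and made up most of the streak sum there. The highest mesenchyme marker was Tagln with the FGFRi and Ahnak at 12 ng/ml. The highest surface ectoderm marker was Krt18 or Krt8 in each library. Epiblast markers summed to 36.6 to 84.3 CPM, with Dnmt3b the highest in every library and 1 to 3 of the 5 at 5 CPM or more. Lateral and extraembryonic mesoderm markers summed to 82.6 to 172 CPM and hemato-endothelial markers to 7.10 to 197 CPM (only Runx1, a gene of blood precursors, above 5 CPM). Feeder fibroblast markers summed to 10.5 to 78.1 CPM and endoderm markers to 0.606 to 3.47 CPM. A summed level does not tell a change in the number of cells of a type from a change within cells. The part that these shifts in cell types have in the whole-library levels below was not tested beyond the cell classes given further on. Those classes sort cells by a few genes and not by these cell types.

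All 6 genes were at their lowest level with the FGFRi, but they parted along the FGF2 dose. The share of all genes that were lowest in that library was not counted. Levels are UMIs per 1000000 UMIs of the library (CPM) with exact Poisson 95% intervals, which cover counting error only, since each condition was 1 library and the spread between cultures is unknown. Spry4 was at 0.565 CPM (0.372 to 0.821) under the FGFRi, at 5.88 CPM (5.27 to 6.54) without added FGF2, and at 13.6, 19.7 and 25.6 CPM for the doses 0.75, 3 and 12 ng/ml FGF2. Spry4 thus stood higher at each further dose, with no overlap between the intervals of its 5 libraries, and its highest level was 45.4 times its lowest. The count behind the lowest level was 27 UMIs in 1701 cells.

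Spred2 was the other gene with levels graded along most of the series. Its level was 14.6 CPM under the FGFRi, 32.7 CPM without FGF2, and 45.9, 56.3 and 56.9 CPM for the doses in rising order. The last pair did not differ beyond counting error, with a ratio of 1.01 (0.965 to 1.06), so that Spred2 leveled off where Spry4 continued to climb. Spred1 was at 35.9 CPM under the FGFRi and reached 58.1, 58.3, 61.8 and 65.7 CPM along the doses, a narrow range once the inhibitor was absent.

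The remaining members peaked inside the dose range. Spry1 was at 4.52 CPM under the FGFRi, 12.4 CPM without FGF2, and 15.8, 11.6 and 11.1 CPM for 0.75, 3 and 12 ng/ml. Spry2 had 24.2 CPM under the FGFRi, 32.0 CPM without FGF2, and 43.0, 37.5 and 37.7 CPM for these doses. For both, 0.75 ng/ml was the highest library and its interval lay above those of its neighbors. Spred3 was at 5.71, 13.0, 18.2, 19.0 and 15.1 CPM in the same order, highest at 3 ng/ml, although its levels at 0.75 and 3 ng/ml did not differ beyond counting error (ratio 1.05, 0.972 to 1.13). Spry3, the Sprouty gene outside this set, had 3 to 13 UMIs per library and no more than 0.201 CPM. Levels are not compared between genes, since capture at the 3′ end differs from gene to gene.

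**Figure D1:**
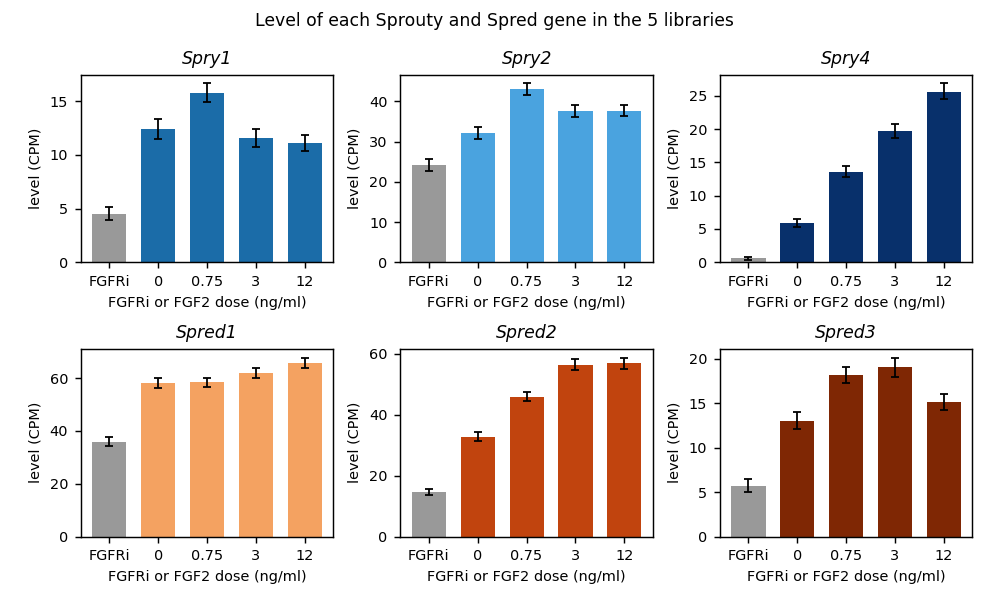
Level of each gene in CPM (vertical axis, from 0, scaled per gene) in the FGFRi library (gray) and at 0, 0.75, 3 and 12 ng/ml FGF2 (colored bars), with exact Poisson 95% intervals as error bars. Each gene is lowest with the FGFRi, Spry4 climbs to 25.6 CPM at the highest dose, and Spry1 and Spry2 peak at 0.75 ng/ml.

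To ask which genes were lower under the inhibitor than in cultures without added FGF2, the FGFRi library was compared with 0 ng/ml FGF2. The study reports that this inhibitor concentration decreased ERK phosphorylation only mildly. In its Spry4 reporter line, fluorescence without FGF was not reduced further by the inhibitor. That is a fluorescent protein in another cell line, whereas RNA was counted here, and the difference was not tested. For RNA in these same libraries, the study reports that Spry4 rose with the dose of added FGF2 and varied between cell clusters. A gene was counted when its ratio was 1.5 or more in either direction and at least 1 of the libraries reached 5 CPM, which is a rule of size and no test. By it 5 of the 6 members were higher at 0 ng/ml and none was lower, where 10.0% of the 10100 genes with that level were higher and 13.4% were lower. The ratio of Spry4 was 10.4 (exact conditional 95% interval 7.03 to 16), rank 29 from the highest among these genes. Spry1 was 2.75-fold higher (2.36 to 3.22), Spred3 2.28-fold (1.98 to 2.63), Spred2 2.25-fold (2.06 to 2.45) and Spred1 1.62-fold (1.53 to 1.72). Spry2 was the member below the limit, with a ratio of 1.33 (1.23 to 1.43). The median over the 6 genes was 1.18 on the log2 scale, against -0.0013 over all genes with that level.

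The step from 0 to 0.75 ng/ml FGF2 held the largest change of Spry4 within the dose series. Spry4 was 2.31-fold higher (2.04 to 2.62) and was the only member past the rule, where 1.64% of 9810 genes were higher and 4.68% were lower. Spred2, Spred3, Spry2 and Spry1 had ratios of 1.40, 1.39, 1.34 and 1.27, below the limit but with intervals above 1, and Spred1 had a ratio of 1.00 (0.960 to 1.05). From 0.75 to 3 ng/ml no member passed the rule (1.43% of 9744 genes were higher and 2.80% lower), and the members lay on both sides of 1. Spry4 had a ratio of 1.45 (1.34 to 1.57) and Spred2 of 1.23, whereas Spry1 had a ratio of 0.735 (0.671 to 0.805) and Spry2 of 0.872. From 3 to 12 ng/ml again no member passed (0.746% of 9653 genes were higher and 0.528% lower). Spry4 here had a ratio of 1.30 (1.21 to 1.40) and Spred3 of 0.793 (0.730 to 0.862), and the ratios of the other 4 members lay between 0.957 and 1.06.

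Across the whole range, from 0 to 12 ng/ml, Spry4 and Spred2 were the members past the rule. Spry4 was 4.36-fold higher (3.88 to 4.92) and Spred2 1.74-fold higher (1.64 to 1.84), where 5.01% of 9931 genes were higher and 9.74% were lower. Spry2, Spred3 and Spred1 had ratios of 1.18 (1.11 to 1.25), 1.16 (1.05 to 1.28) and 1.13 (1.08 to 1.18), and Spry1 had a ratio of 0.893 (0.805 to 0.989). The order of these 4 cannot be told from counting error for Spry2, Spred3 and Spred1, whose intervals overlap. The comparisons with 0 ng/ml share that library, so they are not independent of each other.

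**Figure D2:**
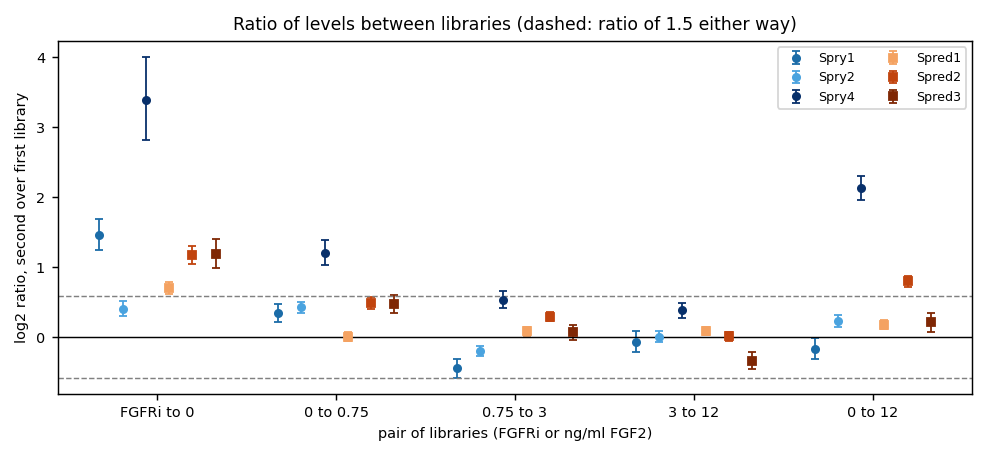
Log2 ratio of the level in the second over the first library (vertical axis) for each pair of libraries (horizontal axis), with circles for Sprouty and squares for Spred genes and exact conditional 95% intervals as error bars. Dashed lines mark a ratio of 1.5 either way; 5 genes lie above the upper line from FGFRi to 0 ng/ml, and Spry4 and Spred2 do from 0 to 12 ng/ml.

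Other genes of the pathway were counted by the same rule to place these levels. Of 15 ERK targets and feedback genes, 13 reached 5 CPM between FGFRi and 0 ng/ml. Of these, 6 were higher at 0 ng/ml. The largest ratios were those of the ETS factor genes Etv4 (11.5-fold, from 1.38 to 15.9 CPM) and Etv5 (7.71-fold). Next came Ccnd1 (3.46-fold) and Dusp6, which encodes an ERK phosphatase (2.94-fold). Another 4 were lower at 0 ng/ml, Spsb1, Egr1, Flrt3 and Ier3, with ratios from 0.318 to 0.535. The list therefore did not move one way, although Egr1 and Ier3 are known as immediate targets of ERK. From 0 to 12 ng/ml, 7 of 14 were higher, with Etv1 (4.12-fold), Etv4 (2.91-fold) and Dusp4 (2.50-fold) the farthest, and 5 were lower, Spsb1, Flrt3, Ier3, Myc and Phlda1. Over all genes with that level, 10.0% were higher and 13.4% lower in the first comparison, and 5.01% and 9.74% in the second. The median log2 ratio of the list was 0.23 in the first comparison and 0.32 in the second, against -0.0013 and 0.013 over all genes with that level.

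The genes for the machinery that the inhibitors act on were counted next. Of 27 binding partners and Ras-ERK components, none was higher in either comparison, where 10.0% and 5.01% of all genes were. Cav1 and Siah2 were lower at 0 ng/ml than with the FGFRi, and Siah2, Gab1 and Tesk1 were lower at 12 than at 0 ng/ml (26 and 25 genes with that level, median log2 ratios of -0.08 in both). The lower genes made up 7.69% and 12% of the list, near the 13.4% and 9.74% of all genes. Siah2 encodes a ubiquitin ligase known to target Sprouty2 for degradation, and its level was 20.8 CPM under the FGFRi, 9.10 CPM without FGF2 and 4.59, 4.49 and 5.24 CPM at the further doses. Of 13 ligand and receptor genes, 5 reached the level between FGFRi and 0 ng/ml, of which Fgfr2 was lower at 0 ng/ml, with a ratio of 0.518, and Fgf8 and Fgf17 were higher (10.1-fold and 68.2-fold, 10 UMIs of Fgf17 with the FGFRi). From 0 to 12 ng/ml, 5 of 8, Fgf4, Fgf15, Fgf3, Fgf8 and Fgf17, were higher, by 15.1-fold to 3.43-fold, and Fgfr2 was lower, with a ratio of 0.140. The median log2 ratios were 0.22 and 2.24, against -0.0013 and 0.013 over all genes with that level. The level of Fgf8 was 24.5 CPM without FGF2 and 160 CPM at the highest dose.

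For each member, the 3 genes with the most similar profile over the 5 libraries were found by the Euclidean distance between centered log2(CPM + 1) values, among 8761 genes with at least 10 CPM in a library. Those of Spry4 were Lmo2, Cyp26a1, which encodes an enzyme that degrades retinoic acid, and Rspo3, which encodes an enhancer of Wnt signaling, at distances of 0.288, 0.337 and 0.403. Lmo2 was at 0.565, 6.64, 12.1, 19.5 and 29.8 CPM from the FGFRi to 12 ng/ml. Those of Spred2 were 2810408I11Rik, Il17rd and Sept3 at 0.0767 to 0.127. Il17rd, also known as Sef, encodes another feedback inhibitor of FGF signaling, and was at 15.1, 36.9, 52.9, 64.4 and 64.2 CPM.

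Profiles near the other members included several histone genes. Nearest to Spry1 were Hist1h3c, Hist1h3e and Plcg2, and nearest to Spred3 were Wdr76, Rarg and Hist1h2ae. Nearest to Spry2 were Klhl24, Tsacc and Gm11361, and nearest to Spred1 were Myg1, Grwd1 and Nob1, the last at distances of 0.0252 to 0.0340. Histone genes are multigene families whose near-identical copies may share reads, so that their counts are uncertain. Over 5 libraries such distances are a description, and they are smaller for a member with a small range, such as Spred1.

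Next, the levels were followed into single cells. With every cell thinned to 5000 UMIs, so that depth was equal, the share of cells with a Spry4 UMI was 0.294% (exact binomial 95% interval 0.0955 to 0.685) under the FGFRi, 2.65% without FGF2, and 6.35%, 8.47% and 10.4% (9.24 to 11.7) for 0.75, 3 and 12 ng/ml. Without thinning these shares were 1.35%, 13.4%, 25.4%, 34.3% and 41.6%. The share of cells with a UMI thus followed the order of the summed levels at either depth. No cell type in these cultures can be taken to lack these genes, so the share of cells that free RNA alone would give could not be measured in any library. Median depths were 24408 UMIs with the FGFRi and 27451.5 to 29661.5 UMIs in the other libraries.

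The thinned share with a Spred2 UMI was 7.05% with the FGFRi and 14.9%, 18.7%, 23.2% and 24.6% along the doses, and that with a Spred1 UMI was 16.5% with the FGFRi and 25.2%, 23.9%, 25.3% and 27.5%. The Spry1 share was 2.65% with the FGFRi and 5.66%, 6.39%, 5.55% and 4.61% along the doses, and its intervals overlapped between neighboring doses. Unthinned, cells with a UMI ranged from 10.3% to 29.1% for Spry1, from 35.9% to 62.6% for Spry2, from 54.3% to 78.9% for Spred1, from 30.3% to 76.4% for Spred2 and from 13.1% to 38.9% for Spred3. Within a library the counts per cell, thinned to 10000 UMIs, had variances of 0.998 to 1.37 times their means, where 1 is what independent sampling of a uniform level gives. Spry1 at 3 ng/ml had the highest value and Spry4 with the FGFRi the lowest.

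**Figure D3:**
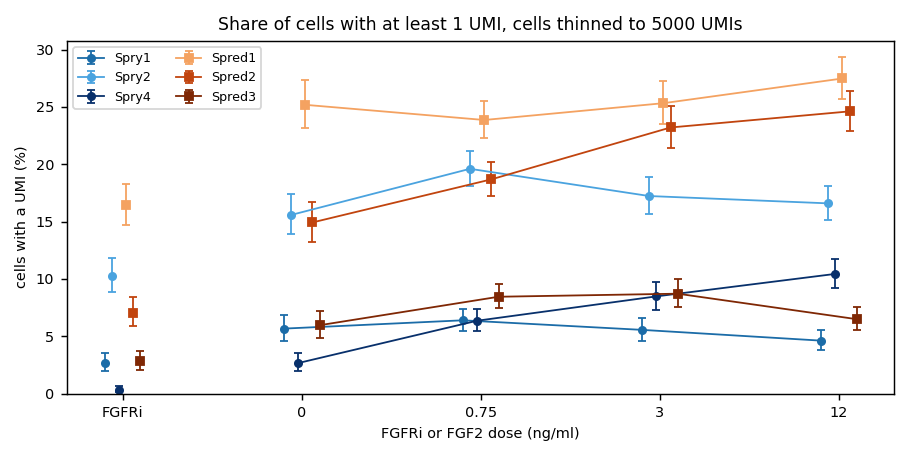
Share of cells with at least 1 UMI of each gene (vertical axis, percent) after thinning each cell to 5000 UMIs, in the FGFRi library and along the FGF2 doses (horizontal axis, ng/ml, evenly spaced), with exact binomial 95% intervals. Spry4 goes from 0.294% with the FGFRi to 10.4% at 12 ng/ml, and Spred2 from 7.05% to 24.6%.

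Cells held UMIs of more members with FGF2 than with the FGFRi. At 10000 UMIs per cell, the mean number of the 6 genes detected in a cell was 0.717 with the FGFRi, 1.20 at 0 ng/ml and 1.49, 1.57 and 1.62 at the further doses. Cells with none of them made up 46.5% with the FGFRi, 26.9% at 0 ng/ml and 17.6%, 14.6% and 14.1% along the doses, and no cell had all 6. Along the doses, the number of cells with UMIs of both members of a pair was between 0.588 (Spry1 and Spry4 at 3 ng/ml) and 1.55 (Spry4 and Spred2 at 0 ng/ml) of the number that the product of the single shares gives. For Spry1 and Spry2 this value was 1.18, 1.20, 1.34 and 1.18 along the doses. For Spry1 and Spry4 it was 1.20, 1.24, 0.588 and 1.23, and the value at 3 ng/ml rested on 18 cells where 30.6 were given by the product. Counts this sparse show little of how transcripts go together in a cell.

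Spry1 separated cells with E-cadherin from cells with N-cadherin RNA. Cdh1 encodes E-cadherin, which epithelial cells carry, and Cdh2 encodes N-cadherin, which is known to take its place as cells enter mesoderm. After thinning to 10000 UMIs, cells with a Cdh1 but no Cdh2 UMI made up 39.2%, 32.7%, 18.9% and 15.1% of cells at 0, 0.75, 3 and 12 ng/ml, and cells with a Cdh2 but no Cdh1 UMI made up 25.6%, 33.9%, 49.2% and 53.1%. With the FGFRi these shares were 33.2% and 35.3%. A class with no UMI of a cadherin may still hold cells that express it, since detection at this depth is incomplete. The mix of cell types within a class may also differ between doses, which was not tested. A change within a class is therefore not a change within 1 cell type.

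In Cdh1-only cells the level of Spry1 was 14.5 CPM (13.0 to 16.2) without FGF2, then 23.9 and 27.7 CPM, and 29.3 CPM (26.2 to 32.6) at the highest dose, a ratio of 2.02 (1.73 to 2.36) over the range. In Cdh2-only cells it was 8.78 CPM (7.31 to 10.5), 7.19, 5.09 and 5.22 CPM (4.51 to 6.01), a ratio of 0.594 (0.471 to 0.751). The classes moved in opposite directions, each past the ratio of 1.5, and their intervals did not overlap at any FGF2 dose. With cells of at most 5% mitochondrial UMIs the ratio in Cdh2-only cells was 0.677, short of that limit. With the FGFRi they were at 4.56 and 4.77 CPM, with overlapping intervals.

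Spred3 behaved alike in direction but from the other side. Its level in Cdh1-only cells was 8.52 CPM at 0 ng/ml and 16.6, 21.2 and 21.5 CPM at the further doses, a ratio of 2.53 (2.09 to 3.07) from 0 to 12 ng/ml. In Cdh2-only cells it was 19.4, 20.4, 17.7 and 13.0 CPM, a ratio of 0.668 (0.574 to 0.778) and just short of the limit, so that the class with the higher Spred3 level at 0 ng/ml had the lower one at 12 ng/ml. The small whole-library ratios of Spry1 and Spred3 from 0 to 12 ng/ml thus stood over opposite ones within the classes.

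Spry4 and Spred2 had higher levels at 12 than at 0 ng/ml FGF2 in Cdh1-only and in Cdh2-only cells. Spry4 in Cdh1-only cells was at 3.66, 11.3, 14.8 and 26.5 CPM along the doses, a ratio of 7.25 (5.66 to 9.37), and in Cdh2-only cells at 9.07, 15.7, 22.2 and 27.0 CPM, a ratio of 2.97 (2.47 to 3.60). The classes, apart at 0, 0.75 and 3 ng/ml, did not differ beyond counting error at 12 ng/ml. Spred2 in Cdh1-only cells was at 25.5, 33.9, 42.6 and 46.6 CPM and in Cdh2-only cells at 46.1, 56.5, 62.4 and 61.6 CPM, and here the Cdh2-only cells stayed above at every dose. The ratios from 0 to 12 ng/ml were 1.83 (1.62 to 2.06) and 1.34 (1.22 to 1.46), the second below the limit. Spry2 had ratios of 1.40 (1.25 to 1.58) and 1.10 (0.993 to 1.23), and Spred1 of 1.17 (1.06 to 1.28) and 1.13 (1.04 to 1.22).

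**Figure D4:**
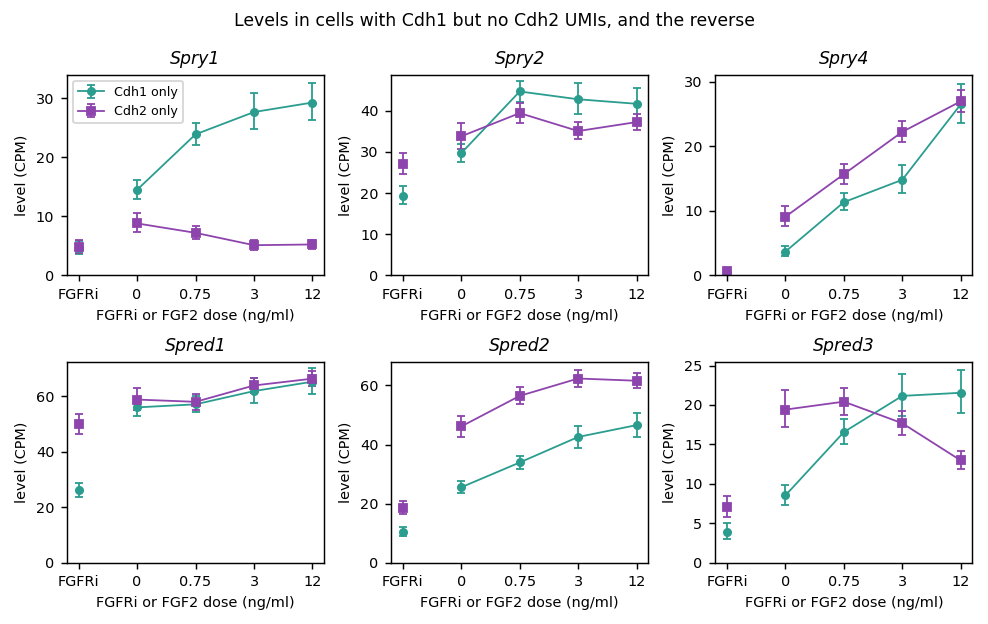
Level of each gene in CPM (vertical axis, from 0, scaled per gene) in cells with Cdh1 but no Cdh2 UMIs (green circles) and in cells with Cdh2 but no Cdh1 UMIs (purple squares), in the FGFRi library and along the FGF2 doses, with exact Poisson 95% intervals. The classes part for Spry1 (29.3 against 5.22 CPM at 12 ng/ml), cross for Spred3 and meet for Spry4.

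Since the classes changed in size, the levels were also computed with the 4 cadherin classes (Cdh1-only, Cdh2-only, both and neither) held at the shares of UMIs they had at 0 ng/ml. The ratio of Spry1 from 0 to 12 ng/ml was then 1.36, where the measured ratio over the same cells was 0.894. That of Spred3 was 1.32 in place of 1.16. Spry1 and Spred3 differed in direction between classes, so their ratios at fixed shares depend on the shares chosen. Shares of other libraries were not used. Relative to 0 ng/ml, Spry1 at fixed shares was at 1.38, 1.33 and 1.36 for 0.75, 3 and 12 ng/ml. These values were nearly level, where the whole-library level peaked at 0.75 ng/ml. Those of Spry2 were 1.36, 1.22 and 1.21, still highest at 0.75 ng/ml. For Spry4 it was 4.32 in place of 4.37 and for Spred2 1.62 in place of 1.74, a small difference for both. From FGFRi to 0 ng/ml, the level of Spry1 with the FGFRi was 0.367 of that at 0 ng/ml as measured and 0.366 at fixed class shares, and that of Spry4 was 0.0968 and 0.0969. With the FGFRi, however, the 4 classes were close, at 3.80 to 4.77 CPM for Spry1 and 0.237 to 0.629 CPM for Spry4. Other class shares could therefore hardly change these values, and they cannot tell what part shifts in cell types have in this difference.

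The difference between FGFRi and 0 ng/ml was also taken within both classes. From FGFRi to 0 ng/ml, Spry4 was 6.50-fold higher (3.26 to 14.7) in Cdh1-only and 14.7-fold higher (7.71 to 31.3) in Cdh2-only cells, from 9 and 10 UMIs with the FGFRi. Spry1 was 3.18-fold (2.46 to 4.15) and 1.84-fold (1.38 to 2.48) higher, and Spred2 2.46-fold and 2.49-fold. Spred1 differed between the classes, at 2.15-fold (1.92 to 2.41) in Cdh1-only and a ratio of 1.18 (1.07 to 1.30) in Cdh2-only cells. Spry2 had ratios of 1.54 and 1.25.

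T (Brachyury) marks the primitive streak and nascent mesoderm, and cells with a T UMI made up 0.542% of cells with the FGFRi and 14.4%, 34.6%, 59.7% and 65.7% along the doses. Spry1 was lower in T-positive than in T-negative cells of the same library, with ratios of 0.635 (0.484 to 0.820), 0.442, 0.310 and 0.377 (0.326 to 0.435) at 0, 0.75, 3 and 12 ng/ml. For Spry4 and Spred2 this ratio lay above 1 and was smaller at each further dose. As for the cadherins, cells without a T UMI may still express T. The part that missed UMIs have in these ratios was not tested, and the same holds for the other marker gates. The ratios of Spry4 were 2.0 (1.54 to 2.58), 1.71, 1.30 and 1.10 (0.992 to 1.21), and those of Spred2 were 1.70 (1.52 to 1.90), 1.66, 1.44 and 1.19 (1.11 to 1.27). Spred3 had a ratio of 1.57 at 0 ng/ml and of 1.11, 0.872 and 1.00 at the further doses. With other T gates the ratio of Spry1 at 0 ng/ml was 0.708 (at least 2 UMIs) and that of Spred3 was 1.42 (cells thinned to 5000 UMIs), both short of the limit, and that of Spry4 at 12 ng/ml was 0.966 (5000 UMIs). From 0 to 12 ng/ml, Spry4 in T-positive cells went from 10.3 to 26.5 CPM, a ratio of 2.56 (2.04 to 3.25). In T-negative cells it went from 5.16 to 24.1 CPM, a larger ratio of 4.68 (4.03 to 5.45).

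Cells with a UMI of an FGF ligand gene (Fgf3, Fgf4, Fgf8 or Fgf17) gave the same order of the members as T at 0 ng/ml, but not at 12 ng/ml. Without added FGF2, Spry4 was at 10.2 CPM in ligand-positive and 4.78 CPM in ligand-negative cells, a ratio of 2.14 (1.69 to 2.70). At 12 ng/ml it was at 25.1 and 27.2 CPM, a ratio of 0.920 (0.831 to 1.02). Spry4 in ligand-negative cells was 5.69-fold higher (4.85 to 6.69) at 12 than at 0 ng/ml, and in ligand-positive cells 2.45-fold (2.02 to 2.98). The Spry4 levels in positive and negative cells were apart when no FGF2 was added and did not differ beyond counting error at the highest dose.

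Other marker genes divided the members further. In cells with Tbx6, a gene of presomitic mesoderm, Spry1 was at 3.93, 7.36, 4.75 and 4.12 CPM along the doses, 0.290 to 0.443 of its level in the other cells of each library. The ratio without FGF2, 0.310 (0.124 to 0.642), rested on 7 Spry1 UMIs in 54 cells. A gate of at least 2 Tbx6 UMIs, which left 17 cells without FGF2, gave 0.790 there, and thinning to 5000 UMIs gave 0.685 at 0.75 ng/ml. Spred3 was at 0.636, 0.578 and 0.617 of its level in Tbx6-negative cells for 0.75, 3 and 12 ng/ml. Without FGF2, where 54 cells were Tbx6-positive, its ratio was 1.22 (0.803 to 1.77). With at least 2 Tbx6 UMIs these Spred3 ratios were 0.305 at 0.75 ng/ml and 0.602 without FGF2. In cells with Hand1, a gene of lateral and extraembryonic mesoderm, Spry4 was lower than in the other cells at 0 ng/ml (3.82 against 7.15 CPM) and had a ratio of 1.42 (1.25 to 1.62) at 3 ng/ml. From 0 to 12 ng/ml, Spred2 had ratios of 2.02 in Hand1-positive and 1.61 in Hand1-negative cells, and Spry4 of 7.25 and 3.53. In cells with Cdx2, a gene of the posterior embryo, Spry4 was 2.33-fold higher than in Cdx2-negative cells at 0 ng/ml (1.83 to 2.97), and its ratio was 0.972 (0.874 to 1.08) at 12 ng/ml.

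**Figure D5:**
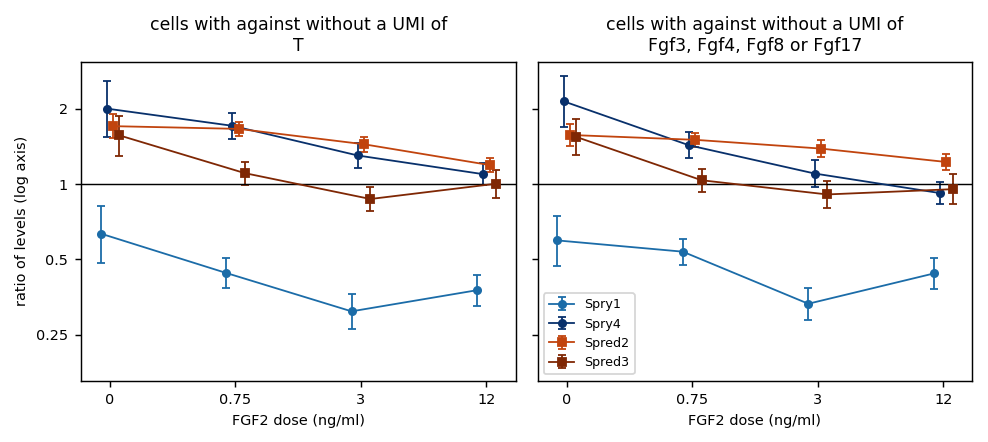
Ratio of the level in cells with a UMI of T (left) or of an FGF ligand gene (right) over the level in the other cells of the same library (vertical axis, logarithmic), for Spry1, Spry4, Spred2 and Spred3 along the FGF2 doses (horizontal axis, ng/ml), with exact conditional 95% intervals. Spry1 lies below 1 throughout, and the ratio of Spry4 in the T panel goes from 2.0 at 0 ng/ml to 1.10 at 12 ng/ml.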

How the data were processed

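Single-cell RNA sequencing libraries (10x Genomics 3′ v3.1), 1 per condition, were analyzed for 6 genes taken by symbol. The files deposited by the authors give UMI counts for each gene in each barcode, not normalized, from reads aligned to mm10 with the 10x reference by Cell Ranger; the file headers give version 5.0.1, and the methods an earlier one. Cells were kept by the study's filters. UMIs were summed over the retained cells, and levels, ratios and shares were given exact 95% intervals, with a pseudocount of 1 only for profile distances. Gates were set on cells thinned to 10000 UMIs, which left out 9 to 39 shallower cells per library, and levels in them used all UMIs. No doublet caller was run; cells with over 2 times the median UMIs were left out as an alternative. Conditions had 1 library each, so none were compared by a test or given a p-value. The size rule and ratio intervals were tested on simulated data with these library sizes, and thinning on simulated cells of unequal depth. The simulated libraries held counting error alone, which the intervals assume, and planted changes larger than the ratio limit. They therefore check the code and cannot tell how the rule fares with spread between cultures.

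The members, gene lists, markers and gates were chosen with earlier results of these data known. Besides the members and the gate genes, the text names the list genes with the largest ratios past the rule of size (up to 4 per direction), other genes of those counts by name alone, the 3 nearest profiles, and Siah2, described after its values were seen. Alternatives were a 5% mitochondrial limit, no cell filter, equal weight per cell, TMM factors (edgeR 4.0.16, R 4.3.3), median-of-ratios factors, other depths, levels and ratio limits, and other gates. Python 3.11.15, NumPy 2.4.6, SciPy 1.17.1, pandas 2.3.3 and Matplotlib 3.10.9 were used.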

Additional observations from a re-analysis of the deposited data

How the results depend on the processing

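Each of the 30 log2 ratios of a member between libraries was recomputed under 6 alternatives, with at most 5% mitochondrial UMIs, with all deposited barcodes, with equal weight per cell, with TMM or median-of-ratios factors, and without cells of over 2 times the median UMIs. All 180 values stayed within the counting interval of the reported one, and the largest shift was 0.26 on the log2 scale. In 5 of them, all for Spry2 from 3 to 12 ng/ml or Spred1 from 0 to 0.75 ng/ml, the sign changed around a value near 0. The number of members past the rule of size from 0 to 12 ng/ml was 2 and became 1 (Spry4) with a ratio of at least 2, and from FGFRi to 0 ng/ml it was 5 and became 4 at that ratio or at 10 CPM, with no change in the other comparisons. Counts over all genes depended on the rule. In order of the pairs FGFRi to 0, 0 to 0.75, 0.75 to 3, 3 to 12 and 0 to 12 ng/ml, 2368, 620, 412, 123 and 1465 genes passed, against 914, 198, 109, 14 and 687 at a ratio of at least 2 and 6870, 4160, 3994, 3274 and 6131 with no minimum level. With at least 10 CPM, 262 passed from 0.75 to 3 ng/ml and 75 from 3 to 12 ng/ml.

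Gates were recomputed with at least 2 UMIs or at 5000 UMIs per cell. This gave 264 recomputed ratios of positive over negative cells within a library, where a ratio counts once for each alternative. Of these, 60 left the counting interval of the value with the gate used above and 31 lay on the other side of 1. Of the 66 recomputed values whose ratio with that gate was past 1.5 either way, 0 changed their side of 1 and 9 fell short of that limit. Among them were Spry1 in the Tbx6 gate at 0 ng/ml (0.790, and 0.310 with the gate used above) and in the Hand1 gate at 12 ng/ml (0.866, and 0.628 with that gate). Ratios from 0 to 12 ng/ml in the cadherin classes and in T-positive cells were recomputed under alternatives chosen after seeing the data. Of these recomputed values, again counted once for each alternative, 5 of 72 left the counting interval. None changed its side of 1 where the reported ratio was past 1.5 either way. The ratio of Spry1 ranged from 1.92 to 2.23 in Cdh1-only and from 0.456 to 0.677 in Cdh2-only cells, where the value at 5% mitochondrial UMIs, 0.677, fell short of the limit. That of Spry4 in T-positive cells was 1.79 with the gate at 5000 UMIs, where it was 2.56 as reported, and the cause was not tested. Nearest profiles depended on the measure. With Pearson correlation 0 of the 3 named genes were shared for each of the 6 members, and with a pseudocount of 5 between 0 and 3 were. No paired analysis was possible because each condition has 1 library. Depth limits Spry4 with the FGFRi, at 27 UMIs, and all gated levels there.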
